A study of Mus musculus with 8 samples.

Results

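The genes Pfkfb1, Pfkfb2, Pfkfb3 and Pfkfb4 encode the 6-phosphofructo-2-kinase/fructose-2,6-bisphosphatase family. These 4 of the 23709 named genes on the array were taken by symbol, as every non-control probe whose gene name in the scanner files is 1 of the 4. This gave 6 of 55681 probes, 1 each for Pfkfb1 and Pfkfb2 and 2 each for Pfkfb3 and Pfkfb4. The family was chosen by the difference of Pfkfb3 between shRaly and control livers on these same arrays. The group differences of its members are therefore given as a description, without a test. For the same reason the limma call of Pfkfb3 among all genes, given below, is no evidence of a difference. RNA of whole livers from 12-week-old bl6 mice on chow was hybridised to 8 single-colour Agilent arrays. The 4 control livers received the adenovirus pblockITcontrol and the 4 shRaly livers the adenovirus pblockITshRaly, which carries a short hairpin RNA against Raly, each at a dose of 2e+09 with no unit stated, and tissue was taken on day 6. Both groups therefore carried a virus, and the labels name neither the promoter of the hairpin nor the liver cells it reached. The comparison asks which liver transcripts differ when Raly, an RNA-binding protein gene, is knocked down.

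Each family member is a bifunctional enzyme: 1 domain makes fructose-2,6-bisphosphate and another breaks it down. Fructose-2,6-bisphosphate activates phosphofructokinase-1 and inhibits fructose-1,6-bisphosphatase, so it moves the liver between glycolysis and gluconeogenesis. Pfkfb1 encodes the classical liver enzyme, whose balance is set by phosphorylation through protein kinase A. Pfkfb2 is best known from heart, Pfkfb4 from testis, and Pfkfb3 is an inducible form with high kinase activity that responds to hypoxia and growth signals.

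The probes of the family differed in where they sit on their transcripts, which is given here because Pfkfb3 and Pfkfb4 have 2 probes each. The first Pfkfb3 probe, here the junction probe, covers 1414 bases of the genome with 60 bases of probe (mm9 chr2:11404189-11405602, minus strand), so it spans an exon junction. The second Pfkfb3 probe, here the 3'-end probe, lies farther along the transcript (mm9 chr2:11393453-11393512, minus strand). The files list 4 RefSeq transcripts for each of these probes, with 0 in common, but no probe has more than 4 listed, so the lists need not be complete. The Pfkfb2 probe lies at mm9 chr1:132586122-132586181 (minus strand) and the Pfkfb1 probe at mm9 chrX:147078320-147078379 (plus strand). The Pfkfb4 probes lie at mm9 chr9:108910455-108910514 (the inner probe) and mm9 chr9:108934652-108934711 (its 3'-end probe), both on the plus strand. Exon and UTR annotation of these positions was not used here. The junction probe is shown whole and the other probes measured on all 8 arrays by their last 30 bases, 5′ to 3′. Capitals mark the polyadenylation signal AATAAA, which stands in the 3'-end probes of Pfkfb3 and Pfkfb4.
Pfkfb3 junction probe: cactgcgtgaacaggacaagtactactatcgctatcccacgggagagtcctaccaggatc
Pfkfb3 3'-end probe: gcaagaacAATAAAaacctggttgagatac
Pfkfb2 probe: ggatgcttttgcattgaagtacactccttt
Pfkfb1 probe: gataaagttctttttaaatattctctgatg
Pfkfb4 3'-end probe: gtgtccagcattctttgcAATAAAtacttt

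Levels are given as the scanner's processed signal divided by the 75th percentile of the same array, so 1 is the level of that percentile. A probe is called measured on an array where the scanner marks it well above background. Levels of different probes were not set against each other, since each probe binds with its own strength. In whole liver, fewer cells of a type and less RNA per cell cannot be told apart.

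Raly, the targeted gene, had levels of 10.8, 9.10, 11.4 and 12.1 on control arrays 1 to 4. On shRaly arrays 1 to 4 it had 5.59, 8.73, 6.29 and 6.77. All 4 shRaly arrays lay below all 4 control arrays, with shRaly 2 close to the lowest control (log2 -0.68, SE 0.15, two-sided p = 0.0286 by an exact permutation test, which is as low as 4 against 4 arrays can go). By limma across all genes the adjusted p was 0.0751, which misses the threshold of 0.05. The control arrays filled 1 row of the slide and the shRaly arrays the other, so the row and the treatment cannot be told apart. The labels do not say that each array is a separate mouse, and p-values here cover only the spread among these arrays. The 10 hepatocyte markers, Alb and Apoa1 among them, were all measured, with a median log2 difference of -0.12. Of these markers 0 passed the threshold, where 1.22% of all genes tested passed. Their summed levels were 5619 to 5978 in controls and 4716 to 5751 in shRaly livers.

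Pfkfb3 was higher in shRaly livers by its 3'-end probe, the 1 of its probes measured on every array. This probe had levels of 1.72, 2.08, 2.75 and 5.97 on control arrays 1 to 4. On shRaly arrays 1 to 4 it had 8.80, 8.69, 11.4 and 12.3. Every shRaly array lay above every control array, and the lowest shRaly array was nearest to control 4. The mean was 3.68-fold higher in shRaly livers (log2 1.88, SE 0.41, n = 4 and 4). This probe was well above background on all 8 arrays, with mean spot signals of 520 on the dimmest array and 3473 on the brightest.

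The Pfkfb3 junction probe was near background and gives no measured fold. It was well above background on 1 of 4 control arrays (control 4) and on 3 of 4 shRaly arrays (all but shRaly 2), so it passed the filter on dim probes mainly through the group in which it was higher. Its signals were 0.0228, 0.0288, 0.0361 and 0.0432 on control arrays 1 to 4. On shRaly arrays 1 to 4 they were 0.107, 0.0618, 0.106 and 0.108. On the 4 arrays where it was measured, the control stood at 0.0432 and the lowest of the 3 shRaly arrays at 0.106. The difference of the processed signals was 1.56 on the log2 scale, background-level arrays included, and 0.51 after a normexp correction that put 50 on top of every signal.

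**Figure D1:**
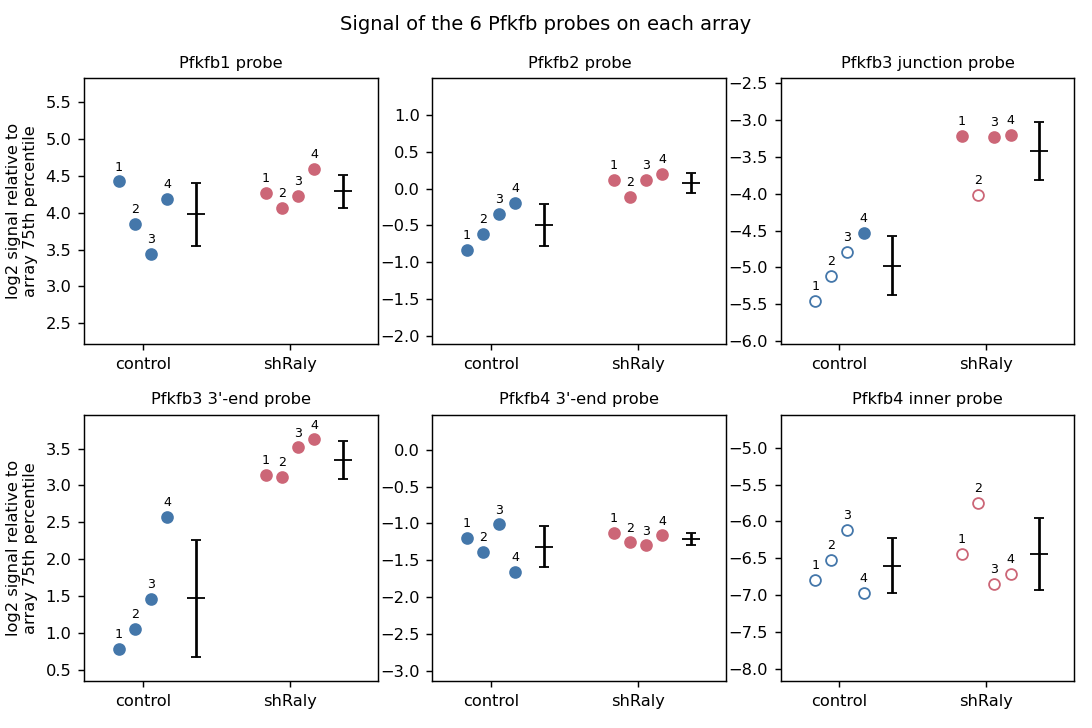
Signal of the 6 Pfkfb probes by array, as log2 of the signal relative to the array's 75th percentile; numbers are replicates, filled points are well above background, open points are not, and bars give the mean and SD of 4 arrays. The Pfkfb3 3'-end probe and the Pfkfb2 probe have all 4 shRaly points above all 4 control points, Pfkfb1 and the Pfkfb4 3'-end probe overlap, and the Pfkfb3 junction probe has open points on 3 control arrays and on shRaly 2.

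Among the control livers themselves Pfkfb3 was variable. The same control values entered the difference by which the family was chosen, so their spread is given as a description. The highest control array had 3.46 times the lowest by the 3'-end probe, and the SD over the controls was 0.79 on the log2 scale. The median gene had 0.16, and 98.9% of the 14730 genes tested had a smaller SD among controls than Pfkfb3. Among shRaly livers the SD of the same probe was 0.26, larger than that of 67.4% of genes, and the highest array had 1.42 times the lowest. Control 4 carried most of the control spread. Without it the SD over the other 3 controls was 0.34, larger than that of 87.5% of genes over the same arrays, and the highest had 1.596 times the lowest. Without control 4 the difference of the 3'-end probe was 2.25 on the log2 scale.

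Pfkfb2, whose enzyme is activated downstream of insulin in other tissues, was also higher in shRaly livers. Its levels were 0.562, 0.651, 0.789 and 0.873 on control arrays 1 to 4 and 1.08, 0.925, 1.08 and 1.15 on shRaly arrays 1 to 4. The groups did not overlap, though the lowest shRaly array, shRaly 2, was close to the highest control, control 4. The mean was 1.49-fold higher in shRaly livers (log2 0.58, SE 0.16, n = 4 and 4), and the probe was well above background on all 8 arrays.

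Pfkfb1, the liver form, overlapped between the groups. Its levels were 21.5, 14.4, 10.9 and 18.3 on control arrays 1 to 4 and 19.3, 16.7, 18.7 and 24.2 on shRaly arrays 1 to 4. Only shRaly 4 exceeded every control, and the spread lay mostly in the controls, whose SD of 0.43 was above that of 93.0% of genes. The log2 difference was 0.31 (SE 0.24, n = 4 and 4).

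Pfkfb4 overlapped as well. Its 3'-end probe had levels of 0.436, 0.383, 0.496 and 0.318 on control arrays 1 to 4 and 0.457, 0.419, 0.407 and 0.447 on shRaly arrays 1 to 4. The 4 shRaly arrays all lay within the range of the controls, with a log2 difference of 0.10 (SE 0.14, n = 4 and 4). The inner Pfkfb4 probe reached well above background on 0 of the 8 arrays, so no fold is given for it.

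Of the 6 probes, 5 passed the filter on dim probes, and all 4 genes were tested in the fit across the array. Pfkfb3 was the 1 member of 4 past the limma threshold, where 1.22% of the 14730 genes were past it in either direction (0.312% as higher and 0.903% as lower in shRaly livers). The Pfkfb3 call held in 1 of 8 fits with 1 array left out (without control 4) and in 6 of 8 other alternatives. The 179 calls over all genes ran from 6 (without control 3) to 277 (without shRaly 2). Pfkfb3 and Pfkfb2 were the 2 members of 4 whose shRaly arrays all lay above the controls, as was the case for 3.94% of all genes, and 0 members had them all below, against 6.46%. Nothing is read from these counts, because the same contrast chose the family. The plot of the differences under other settings shows that the Pfkfb3 3'-end probe and the Pfkfb2 probe kept their sign in all of them.

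**Figure D2:**
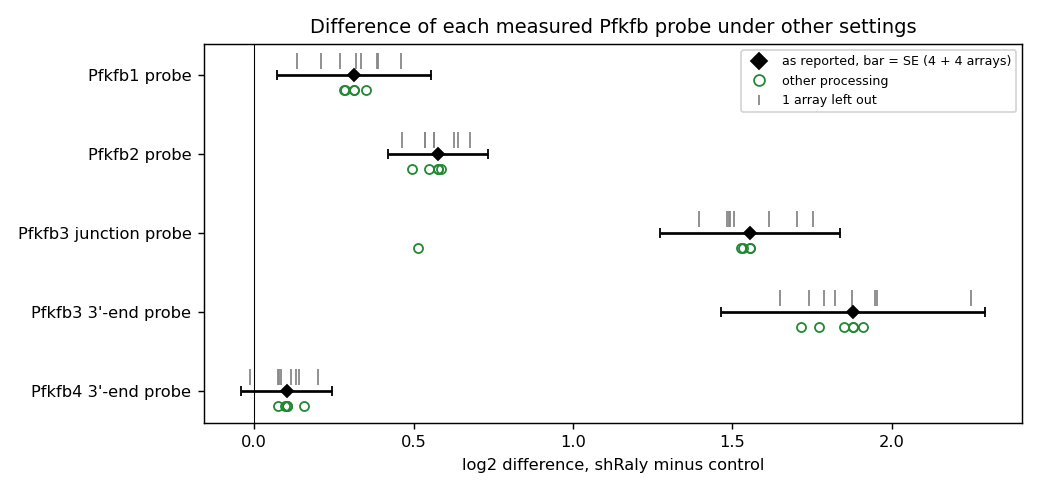
Log2 difference, shRaly minus control, of the 5 Pfkfb probes measured on any array; diamonds with SE are the values as reported, circles the other processing settings and ticks the values with 1 array left out. The Pfkfb3 3'-end probe runs from 1.65 to 2.25, the Pfkfb2 probe from 0.47 to 0.68, and the isolated circle at 0.51 is the Pfkfb3 junction probe after normexp correction.

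Pfkfb2 and Pfkfb3 followed the same order across the control arrays, and a less close one across the shRaly arrays. Within the controls the Pfkfb3 3'-end probe and the Pfkfb2 probe both rose at each step from control 1 to control 4. That is also the order of the columns on the slide, so column and liver cannot be told apart there. In the shRaly livers neither probe rose at every step. Pfkfb2 had 1.08 on both shRaly 1 and shRaly 3, where the Pfkfb3 3'-end probe had 8.80 and 11.4. Over the 8 arrays Pfkfb2 had a Pearson correlation of 0.96 with the Pfkfb3 3'-end probe, rank 9 among 13333 genes compared. Over deviations from the group means, which remove the group difference, it was 0.88, rank 96. The controls weigh most in that value, since the SD of the Pfkfb3 3'-end probe was 0.79 in controls and 0.26 in shRaly livers. These values describe 8 arrays in 2 groups that share their scaling, and 103 genes had a correlation above 0.9 while 108 had one below -0.9. Pfkfb1 stood at 0.45 over the 8 arrays and 0.10 over the deviations, and Pfkfb4 at -0.03 and -0.62. Raly stood at -0.69 and 0.29. On shRaly 2, where Raly was highest within its group at 80.9% of the control mean, Pfkfb3 stood at 314% by the 3'-end probe. On shRaly 1, where Raly was lowest at 51.8%, Pfkfb3 stood at 318%. On shRaly 3 and shRaly 4, with Raly at 58.3% and 62.7%, Pfkfb3 stood at 413% and 445%. Whether Pfkfb3 follows the depth of the knockdown was not tested.

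**Figure D3:**
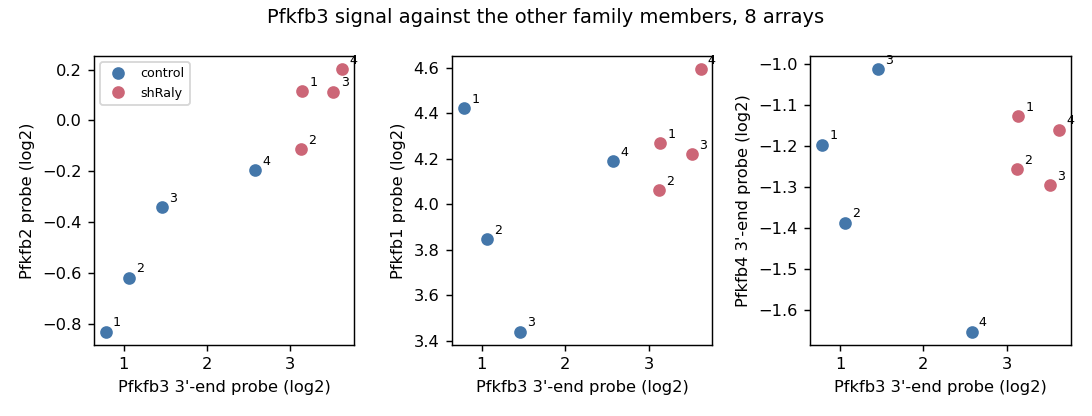
Log2 level of the Pfkfb2, Pfkfb1 and Pfkfb4 3'-end probes (vertical axes) against the Pfkfb3 3'-end probe (horizontal axes), 1 numbered point per array. Pfkfb2 tends to be higher where Pfkfb3 is higher (correlation 0.96), less closely among the shRaly arrays. Pfkfb1 (0.45) and Pfkfb4 (-0.03) do not line up with Pfkfb3.

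The 5 genes whose array pattern was most like that of Pfkfb3 had much smaller group differences. They were Ufl1, a ligase for the ubiquitin-like modifier UFM1 (correlation 0.99 over 8 arrays and 0.99 over deviations from the group means), Nfam1, an immune receptor gene (0.98 and 0.95), R3hdm2 (0.98 and 0.92), Rbm27, an RNA-binding protein gene (0.97 and 0.87), and Ing5, a chromatin reader (0.97 and 0.96). Their log2 differences ran from 0.21 (Ufl1) to 0.49 (Rbm27), and 0 of the 5 passed the limma threshold (adjusted p from 0.0852 for Rbm27 to 0.292 for Ufl1). A second R3hdm2 probe had a log2 difference of 0.15 against 0.38. The 5 genes also rose at each step from control 1 to control 4, the order of the slide columns.

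The genes beside Pfkfb3 on chromosome 2 had small negative differences that did not pass the threshold. Prkcq, a protein kinase C gene, had a log2 difference of -0.15 (SE 0.14, limma adjusted p = 0.643) and Rbm17, a splicing factor gene, -0.16 (SE 0.14, limma adjusted p = 0.629). With normexp correction Prkcq stood at 0.10.

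RefSeq promoter windows, 250 bases before to 50 after a transcription start on build GRCm38.p6, were found for all 4 members: 4 for Pfkfb1, 3 for Pfkfb2, 2 for Pfkfb3 and 1 for Pfkfb4. They were searched on both strands for the hypoxia response core ACGTG, the E-box CACGTG, which contains that core, and the cyclic AMP response element TGACGTCA. ACGTG stood in 2 of 2 Pfkfb3 windows, 2 of 3 Pfkfb2 windows, 0 of 4 Pfkfb1 windows and 0 of 1 Pfkfb4 windows, against 19.6% of all 32851 windows. CACGTG stood in 1 Pfkfb3 and 1 Pfkfb2 window, against 7.15% of all windows. TGACGTCA stood in none of the 10 windows of the family, against 1.79% of all windows. The 250 bases before each Pfkfb3 start are shown because these are the starts of the member with the widest difference; ACGTG on either strand is in capitals. The first lies at chr2:11553930-11554179 and the second, 51839 bases downstream, at chr2:11502091-11502340, both on the minus strand of GRCm38.p6. The match begins 60 bases before the first start and 53 bases before the second. A match is a description of the letters, and which start the liver uses was not measured.
Pfkfb3 start 1: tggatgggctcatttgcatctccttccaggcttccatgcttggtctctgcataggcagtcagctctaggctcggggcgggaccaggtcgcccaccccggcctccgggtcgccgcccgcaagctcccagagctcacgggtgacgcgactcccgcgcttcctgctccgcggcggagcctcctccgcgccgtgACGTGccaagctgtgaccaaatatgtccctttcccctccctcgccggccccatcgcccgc
Pfkfb3 start 2: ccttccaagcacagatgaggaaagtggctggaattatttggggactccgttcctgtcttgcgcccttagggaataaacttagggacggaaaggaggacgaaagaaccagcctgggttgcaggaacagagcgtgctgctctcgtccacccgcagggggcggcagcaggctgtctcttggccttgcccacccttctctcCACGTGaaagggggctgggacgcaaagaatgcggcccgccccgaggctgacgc

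Of the enzymes that use or are controlled by fructose-2,6-bisphosphate, 6 genes were listed, 5 were tested and 0 passed the threshold in either direction. Of all 14730 genes tested 1.22% passed, so nothing is read from a count of 0 in so short a list. The median log2 difference of the list was 0.02, against -0.02 for all genes tested. The subunits of phosphofructokinase-1 that fructose-2,6-bisphosphate activates stood at -0.08 (Pfkl, the liver subunit, SE 0.13), 0.02 (Pfkm, SE 0.10) and 0.22 (Pfkp, SE 0.11). A second Pfkp probe, measured on 2 of 4 shRaly arrays, stood at -0.79. Fbp1, the gluconeogenic enzyme that it inhibits, had a log2 difference of -0.21 (SE 0.12, limma adjusted p = 0.422), and Fbp2 never reached well above background. Tigar, a phosphatase that removes fructose-2,6-bisphosphate, had 104%, 99.9%, 95.9% and 100.4% of the control mean on control arrays 1 to 4. On shRaly arrays 1 to 4 it had 139%, 107%, 110% and 126%. The groups did not overlap, and the log2 difference of 0.26 (SE 0.10, limma adjusted p = 0.256) did not pass.

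In the rest of glycolysis 1 gene passed the threshold. Aldoa, the aldolase that splits fructose-1,6-bisphosphate, had 106%, 86.6%, 102% and 107% of the control mean on control arrays 1 to 4 and 166%, 144%, 136% and 145% on shRaly arrays 1 to 4. It rose 1.47-fold (log2 0.56, SE 0.10, limma adjusted p = 0.0448) with no overlap of the groups. The call was lost in each of the 8 leave-outs, with adjusted p from 0.0613 (without shRaly 2) to 0.130 (without control 3). Of the 23 genes tested in that list, 1 rose, 0 fell and 22 did not pass, with a median log2 difference of 0.09. The share past the threshold over all 14730 genes was 1.22%, so nothing is read from 1 call in this list.

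Gluconeogenic and fasting genes had 0 of 14 past the threshold, where 1.22% of all genes tested passed, and a median log2 difference of 0.07. Pck1, which makes phosphoenolpyruvate for gluconeogenesis, stood at 0.39 (SE 0.13, limma adjusted p = 0.190), and Foxo1, a transcription factor for such genes, at 0.50 (SE 0.12, limma adjusted p = 0.0951). Insulin and glucose response genes had 0 of 9 past the threshold and a median of -0.04. Among them Pik3r1, a regulatory subunit of phosphoinositide 3-kinase, stood at 0.71 (SE 0.20, limma adjusted p = 0.125). Pdk1, a pyruvate dehydrogenase kinase, stood at -0.40 (SE 0.17, limma adjusted p = 0.296). Fructose and pentose phosphate enzymes also had 0 of 9 past it and a median of 0.01. Rpia, ribose-5-phosphate isomerase, stood at 0.55 (SE 0.16) and Tkt, transketolase, at -0.35 (SE 0.12).

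Regulators of the family and of Pfkfb3 transcription had 0 genes past the threshold. The 17 kinase, phosphatase and degradation factors that act on the enzymes had a median log2 difference of 0.04. Prkaca, a catalytic subunit of protein kinase A, stood at -0.44 (SE 0.12, limma adjusted p = 0.123), with all shRaly arrays below the controls. With normexp correction Prkaca stood at -0.23. Prkacb, another catalytic subunit of that kinase, stood at -0.09 (SE 0.09, limma adjusted p = 0.700). Prkaa1, a catalytic subunit of AMP-activated kinase, stood at 0.33 (SE 0.09, limma adjusted p = 0.125), with all shRaly arrays above the controls. The 23 hypoxia-inducible factors and targets tested had a median of 0.07, with 14 positive and 9 negative. Vhl, which marks hypoxia-inducible factors for degradation, stood at 0.31 (SE 0.08, limma adjusted p = 0.0973), with all shRaly arrays above the controls. Ddit4, a stress-induced inhibitor of mTORC1, stood at 1.13 (SE 0.34, limma adjusted p = 0.156). Its groups overlapped, with shRaly 2 at 120% of the control mean and control 4 at 148%. Over all pathway lists together, 95 of 99 genes were tested, 1 rose, 0 fell and 94 did not pass, and the median was 0.04. Of all 14730 genes tested 1.22% passed, so nothing is read from the counts of these lists.

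**Figure D4:**
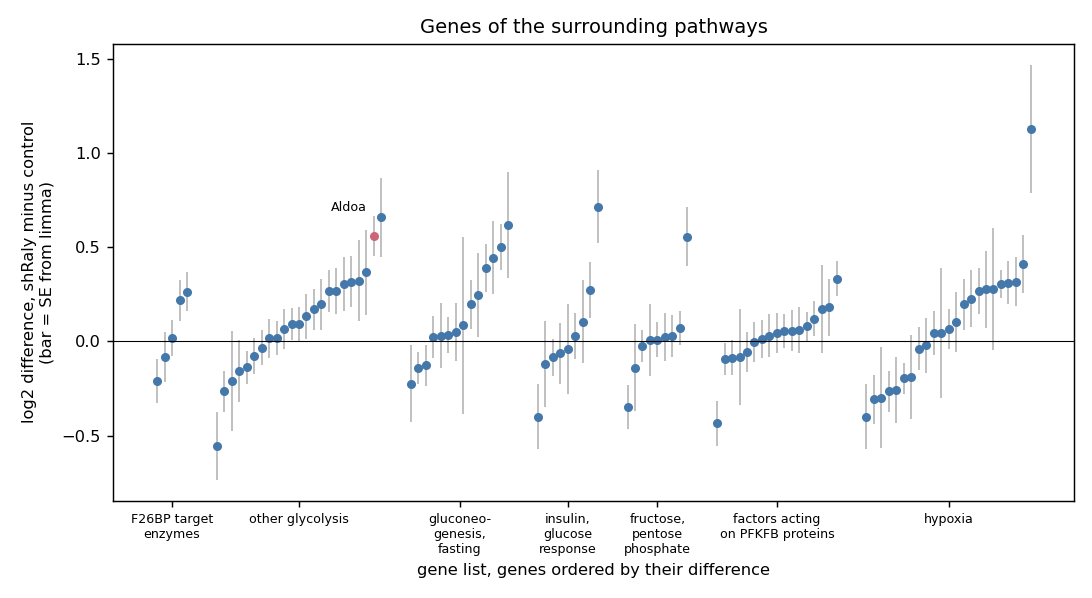
Log2 difference, shRaly minus control, with its SE from limma, for the genes of the 7 pathway lists, ordered within each list; genes in 2 lists are drawn in both. Aldoa, in red, is the 1 gene past the threshold, and the highest point in the hypoxia list is Ddit4 at 1.13, whose groups overlap.

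Markers of other cell types were measured on the same arrays, with 0 members past the threshold in any list, where 1.22% of all genes tested passed. The 8 cycling-cell markers all had positive differences, with a median of 0.57. Their median relative to the control mean was 0.03 on shRaly 2 and at least 0.55 on the other shRaly arrays. The controls ran from -0.30 to 0.30, a range that included shRaly 2. The summed level of the cycling markers was 7.17 to 10.6 in controls and 8.99 to 18.1 in shRaly livers. For the 10 endothelial markers the summed level was 64.4 to 71.9 in controls and 53.5 to 63.9 in shRaly livers. Without Clec4g, the brightest of them, it was 32.4 to 38.6 and 31.3 to 34.1, which overlap. The 8 Kupffer cell and macrophage markers tested of 10 had summed levels of 81.7 to 116 and 85.1 to 110, and Cd163 and Timd4 were not above background on any array. The 6 neutrophil markers tested of 10 had 5.03 to 7.61 and 6.05 to 8.42, with Ngp, Cxcr2 and Ltf never above background. Stellate cell markers (10 of 10) had 17.6 to 27.2 and 15.1 to 19.6, adipocyte markers (5 of 8) 12.0 to 28.8 and 10.8 to 23.5. T and NK cell markers (8 of 10) had 37.4 to 52.9 and 24.1 to 41.4, of which Cd4 made up 80.2% in controls (log2 difference -0.75, limma adjusted p = 0.143). Without Cd4 they had 7.50 to 9.20 and 7.34 to 10.2, and 6 of the 8 differences were positive, with a median of 0.08. For cholangiocytes (6 of 8) they were 2.74 to 7.66 and 3.39 to 4.42. Of the 8 skeletal muscle markers, 5 were never above background, Ckm and Myh4 among them. The part of these cell types in the Pfkfb3 difference was not tested.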

How the data were processed

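The arrays were scanned and read with Feature Extraction from Agilent. Per the file headers, the processed signal intensity was background-subtracted and spatially detrended, with no scaling between arrays. The deposited value table equals it at all 62976 spots of every array. From there, log2 of the deposited processed signal was taken and centred on the 75th percentile of the array's non-control spots, and 137 to 163 spots per array flagged as non-uniform or outliers were set to missing; 0 were saturated. Between 45.9% (shRaly 2) and 51.1% of spots were well above background. The precision is limited by the number of arrays. Genes were named through RefSeq accessions of GRCm38.p6 for 27656 probes. Others were named by symbol (3401), older symbol (321) or the name in the scanner files (1420). Probe positions are on mm9, and the promoter windows are on GRCm38.p6.

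Tested genes had a probe that the scanner marked well above background on 4 or more of 8 arrays, with 3 or more values per group. This left 19706 probes of 14730 genes, each gene represented by its brightest probe. limma 3.58.1 in R 4.3.3 was used with Benjamini-Hochberg adjustment at 0.05. The fit was tested on simulated data. Member differences carry the plain SE of 4 and 4 arrays. Named were all members, Raly, the target enzymes, the genes past the threshold or else the 2 of smallest p per pathway list, the 5 genes most like Pfkfb3 and its neighbours. Members and lists were chosen with earlier results of these data known. Alternatives were normexp, quantile and median scaling, other filters, the mean of probes, a replicate block, the value table and leaving out each array. Control spread without each control, marker sums without the brightest gene and the Prkacb values were added after seeing the data.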

Additional observations from a re-analysis of the deposited data

Results flagged for a closer look

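In 58 groups of 4 arrays behind the values above, 2 had an array far from the other 3, where chance gives about 1 in 20. For the Pfkfb3 junction probe, shRaly 2, where it was not well above background, was the lowest of its group at -4.02 on the log2 scale while the others lay between -3.24 and -3.21 (gap over range 0.962). For Vhl, control 2 was the highest of its group at 1.84 while the others lay between 1.75 and 1.76 (gap over range 0.892).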

How the results depend on the processing

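The Pfkfb probes measured on all 8 arrays kept their direction under all settings run, except the Pfkfb4 3'-end probe without control 4. With 1 array left out the log2 differences ran from 0.13 to 0.46 for Pfkfb1, 0.47 to 0.68 for Pfkfb2, 1.39 to 1.75 for the Pfkfb3 junction probe, 1.65 to 2.25 for its 3'-end probe and -0.01 to 0.20 for the Pfkfb4 3'-end probe. The junction probe was measured on 1 of 4 control arrays, so its values give no measured fold, and it stood at 0.51 with normexp. Pfkfb3 was past the threshold in 1 of 8 leave-outs (without control 4) and in 6 of 8 other alternatives. The calls with median scaling and with no filter were lost. The alternatives reuse the same arrays, and the value table holds equal values. The mean of probes takes in the junction probe, which passed the filter mainly through shRaly arrays. Nothing is read from these counts, because the same contrast chose the family. The count of genes past the threshold, 179, was 43 with no filter on dim probes and 6 to 277 with 1 array left out (6 without control 3, 277 without shRaly 2). With a replicate block it was 46. The replicate number is also the slide column in both groups, so this block cannot be told apart from a block on columns. Arrays of the same number had correlations of deviations of 0.08, -0.02, -0.07 and 0.14, and not every array correlated best with its own number. These values cannot show whether the samples were paired. The 1 pathway call, Aldoa, was 0 with normexp, median scaling, no filter and the replicate block, and 0 to 1 with 1 array left out, where the 1 call, without shRaly 2, was Pik3r1 (0.88). Raly passed with normexp (-0.71) and without shRaly 2 (-0.80), and ran from -0.80 to -0.59 over the leave-outs. Small differences changed sign: Pfkl ran from -0.17 to 0.029 and Pfkm from -0.021 to 0.071 with 1 array left out, Pfkm stood at -0.011 with normexp and at -0.0089 with median scaling, Pfkp at -0.29 with the mean of its probes and Prkcq at 0.10 with normexp. The cause of these changes was not tested.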
